A study of Homo sapiens with 40 samples.

Results

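Chromatin accessibility was compared between BT474R cells given vehicle for 1 h and BT474R cells collected at baseline, from 4 ATAC-seq peak lists: 2 vehicle and 2 baseline. Peaks of the 4 lists on chromosomes 1 to 22 and X were merged wherever they overlapped by 1 bp or more, which gave 58989 regions. A region was gained when both vehicle lists and neither baseline list held a peak there, and lost when both baseline lists and neither vehicle list did. Of the 58989 regions, 2637 were gained and 163 were lost, 2800 in all, and the merged peaks of all 40 libraries of the series make 76603 regions. The rule was also applied with equal numbers of peaks, keeping in each list the 44546 peaks with the highest scores, the length of the shortest list. That left 49615 merged regions, with 981 gained and 938 lost.

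The series covers BT474, a HER2-amplified breast ductal carcinoma line that responds to trastuzumab, and its resistant derivative BT474R. The latter is 1 clone, raised from BT474 cells that had grown for several weeks with that antibody. Both lines were serum starved and then given EGF, heregulin (HRG) or vehicle for 1, 12 or 24 h, with 2 libraries in each of 20 groups. The baseline cells (0 h) were collected at the end of starvation, and the vehicle was water in freshly made starvation medium. Vehicle cells therefore differed from baseline cells in 1 more hour of culture and in fresh medium, and these cannot be told apart here. The labels do not say that the duplicates came from separate cultures, so a p-value here measures only the spread between these libraries, which may be technical. The promoters of all 10 luminal and HER2-positive marker genes, among them ERBB2, GATA3 and KRT8, held a peak in all 4 lists. Of 12 markers of leukocytes, endothelium, fibroblasts and basal cells, 8 held no promoter peak in any of the 4 lists and 3 held 1 in all of them. The 12th, the basal keratin KRT5, had a promoter peak in both vehicle lists and in neither baseline list, gained also at equal numbers, while the basal keratin KRT14 had none and the basal factor TP63 had 1 in all 4 lists. Its part in the results was not tested.

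In ATAC-seq a transposase inserts sequencing adapters into DNA that is not wrapped in nucleosomes, so a peak marks a stretch of open chromatin such as a promoter, an enhancer or an insulator. A change of medium can start an immediate early response, in which kinases switch on transcription factor genes already poised for use, among them FOS, JUN, EGR1 and NR4A1. FOS and JUN proteins pair to form AP-1, which binds the sequence TGANTCA in enhancers and helps to open them. TEAD factors bind ACATTCC together with YAP, a regulator that responds to adhesion, cell tension and serum.

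The windows printed here are the reference genome (hg38) within 100 bp of the summit of a region, 201 bases each, on the plus strand and 5′ to 3′. Capitals mark each match to the AP-1 consensus on either strand. They are the strongest gained region without such a match (nearest gene NR4A1) and the 3 strongest gained with one (PLAU, EFHD1 and ADORA2B), then the 3 strongest lost with one (STX18, FGD5 and AKAP9). The 2 sets are shown because the gained regions held the AP-1 consensus more often than the lost regions did.

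NR4A1, chr12:52060285-52060485: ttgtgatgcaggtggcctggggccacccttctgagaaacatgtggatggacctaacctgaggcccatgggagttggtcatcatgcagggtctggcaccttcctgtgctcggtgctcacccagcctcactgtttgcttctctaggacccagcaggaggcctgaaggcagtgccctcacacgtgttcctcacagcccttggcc

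PLAU, chr10:73909329-73909529: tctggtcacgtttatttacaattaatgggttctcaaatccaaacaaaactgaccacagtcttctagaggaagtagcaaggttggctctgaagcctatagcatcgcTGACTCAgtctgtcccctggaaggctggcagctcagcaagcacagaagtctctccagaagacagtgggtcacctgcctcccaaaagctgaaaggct

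EFHD1, chr2:232593009-232593209: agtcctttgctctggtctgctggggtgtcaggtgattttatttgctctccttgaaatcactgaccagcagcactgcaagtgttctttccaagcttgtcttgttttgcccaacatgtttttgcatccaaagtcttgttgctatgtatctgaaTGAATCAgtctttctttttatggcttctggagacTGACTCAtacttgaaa

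ADORA2B, chr17:15921008-15921208: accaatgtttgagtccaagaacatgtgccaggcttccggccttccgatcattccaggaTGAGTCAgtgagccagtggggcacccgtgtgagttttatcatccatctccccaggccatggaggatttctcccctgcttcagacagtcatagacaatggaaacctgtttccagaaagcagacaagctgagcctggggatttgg

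STX18, chr4:4694247-4694447: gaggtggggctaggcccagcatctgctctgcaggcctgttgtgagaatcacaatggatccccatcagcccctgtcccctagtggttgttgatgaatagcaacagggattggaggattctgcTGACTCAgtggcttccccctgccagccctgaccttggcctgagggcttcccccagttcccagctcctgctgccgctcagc

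FGD5, chr3:14822322-14822522: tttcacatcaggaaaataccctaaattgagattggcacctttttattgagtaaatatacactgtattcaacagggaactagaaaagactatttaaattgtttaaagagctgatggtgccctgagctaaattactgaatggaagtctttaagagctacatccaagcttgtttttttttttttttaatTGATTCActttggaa

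AKAP9, chr7:92064514-92064714: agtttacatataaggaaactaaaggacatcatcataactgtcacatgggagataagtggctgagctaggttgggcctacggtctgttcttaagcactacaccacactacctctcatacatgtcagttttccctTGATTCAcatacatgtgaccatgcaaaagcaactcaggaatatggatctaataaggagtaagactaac

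The match of the PLAU window lay 8 bp from the summit, that of ADORA2B 39 bp before it, and the 2 of EFHD1 lay 54 and 88 bp after it. The matches of the lost windows lay 24, 89 and 36 bp after their summits.

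The lists of the vehicle libraries held more peaks than those of the baseline libraries. Vehicle replicates 1 and 2 listed 56494 and 54256 peaks, and baseline replicates 1 and 2 listed 53007 and 44546. The groups did not overlap, but the baseline libraries lay farther from each other than baseline replicate 1 lay from either vehicle library. The means were 55375 ± 1583 (SD, n = 2) and 48776 ± 5983 (SD, n = 2), a difference of 6598 peaks with a two-sided exact permutation p of 0.33, the smallest that 2 against 2 can give. Without baseline replicate 2 the difference was 2368 peaks, and without baseline replicate 1 it was 10829. The covered length was 33.2 ± 1.22 Mb with vehicle and 30.6 ± 6.48 Mb at baseline (SD, n = 2, exact permutation p = 1). Depth is unknown, since the lists give no read counts, and across the line the number of peaks ran from 32479 to 56494.

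**Figure D1:**
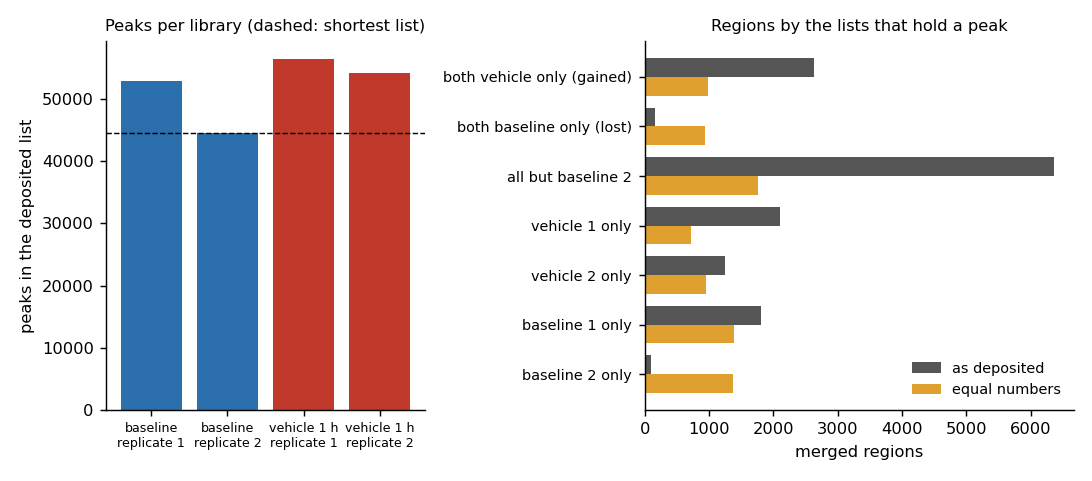
Number of peaks in each of the 4 deposited lists (left, the dashed line marks the shortest list, 44546) and number of merged regions by which lists hold a peak (right), as deposited and with 44546 top peaks per list. Gained regions go from 2637 to 981 and lost regions from 163 to 938 at equal numbers, and the largest class shown is the 6360 regions open in every list but baseline replicate 2.

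Most chromatin was open in both groups. A peak was present in all 4 lists at 41458 regions (70.3%), gained regions were 4.47% and lost regions 0.276% of the 58989. A further 6360 regions (10.8%) were open in every list but baseline replicate 2, the shortest, and 1811 were open in baseline replicate 1 alone. With equal numbers the gained share was 1.98% and the lost share 1.89%, so that gained regions went from 94.2% of the members to 51.1%. Equal numbers bring that share towards an even split by construction. The split thus changed with the number of peaks kept per list, and the direction of the change in openness as a whole could not be read from it.

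The counts rested on single libraries. Without baseline replicate 1 the gained regions were 9197, and without vehicle replicate 2 they were 4778. The lost regions were 1978 without baseline replicate 2, 547 without vehicle replicate 1, 359 without vehicle replicate 2 and 263 without baseline replicate 1. Regions that were members both ways numbered 328 gained, which is 12.4% of the gained regions as deposited and 33.4% of those at equal numbers, and 60 lost, which is 36.8% and 6.4%. Of the 981 gained regions at equal numbers, the other 653 held a peak of lower rank in the full list of baseline replicate 1, and of the 938 lost regions, 678 held a peak in both full vehicle lists.

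The gained and lost regions were weak, narrow and far from promoters. Each peak was given its rank percentile by score within its own full list, and each region the lower percentile of the lists that held it. That value had a median of 7.51 for gained, 4.97 for lost and 31.2 for all merged regions, and it reached 68.3 among gained and 44.7 among lost regions. The median widths were 306 bp for gained and 318 bp for lost regions, against 504 bp for all. A promoter, taken as 1 kb either side of an annotated start of a protein-coding gene, was overlapped by 7.24% of the gained regions (191), 6.13% of the lost regions (10) and 25.7% of all merged regions. Introns held 44.7% and intergenic DNA 42.6% of the gained regions. A peak of the opposite group lay within 1 kb of 15.2% of the gained and 19.0% of the lost regions, so most had no peak of the other group beside them.

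**Figure D2:**
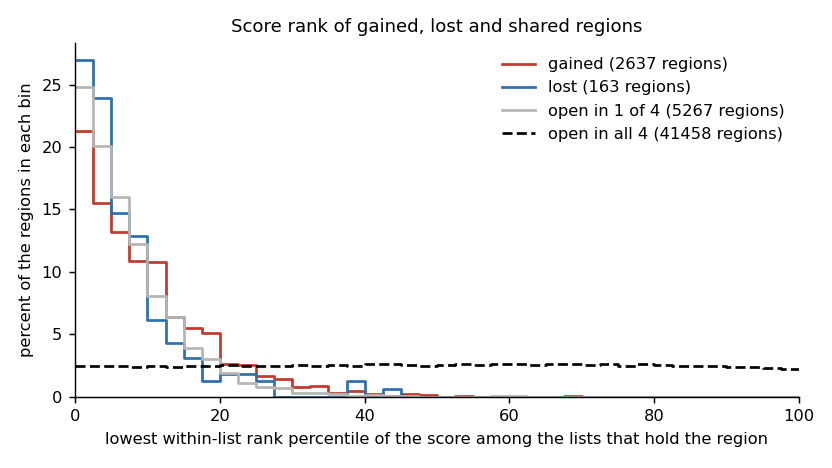
Lowest within-list rank percentile of the score (x axis, 0 is the weakest peak of a list) for gained, lost, once-seen and shared regions, as the percent of each class per bin of 2.5 percentiles. Gained and lost regions pile up below the 20th percentile, like the 5267 regions open in 1 list, while the 41458 regions open in all 4 lists spread evenly.

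The strongest gained region lay beside NR4A1, which encodes an orphan nuclear receptor of the immediate early class. It spans chr12:52059536-52061222, 2.93 kb from the nearest annotated start and just past the end of the gene. It ranked at percentile 68.3 and 76.3 in vehicle replicates 1 and 2 and had no peak in either baseline list. Of the other BT474R libraries, all 4 ligand libraries at 1 h held a peak there and none of the 12 libraries at 12 or 24 h did. In BT474 it was open in 1 of 2 baseline lists and in neither 1 h vehicle list.

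The NR4A1 gene held 2 more gained regions, both at its last annotated start. They span chr12:52056029-52056708, at percentiles 11.2 and 21.1, and chr12:52056862-52057801, at 15.8 and 34.1. Unlike the region past the gene end, these had no peak in any ligand library at 1 h and none in the 12 later libraries. The peak 3 to 6 kb before that start was present in all 20 libraries of the line and ranked at percentile 98.8 or above in each. Over the whole gene, 36676 bp, peaks covered 10531 and 10095 bp in the vehicle libraries and 7730 and 5999 bp at baseline. With 32479 top peaks per list, the line's shortest list, the coverage was 8756 and 8502 bp with vehicle against 6298 and 5999 bp. The other 16 libraries of the line covered 4895 to 8086 bp. In BT474, as deposited, peaks covered 6027 and 6329 bp at baseline and 6181 and 6057 bp with vehicle at 1 h. The BT474 vehicle libraries covered 11188 and 8019 bp at 12 h and 11472 and 11115 bp at 24 h.

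**Figure D3:**
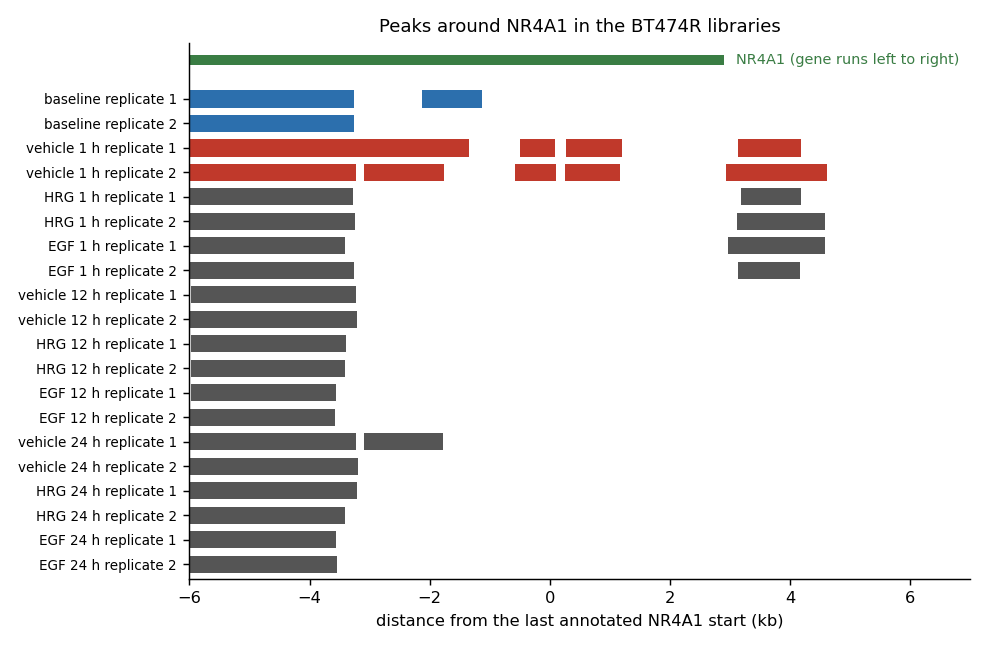
Peaks of the 20 BT474R libraries around NR4A1, as bars along the distance in kb from its last annotated start, with the gene as a green bar. The 2 vehicle libraries at 1 h (red) hold peaks at the start and past the end of the gene that the 2 baseline libraries (blue) lack, and the 4 ligand libraries at 1 h hold only the one past the end.

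The other strongest gained regions were 1 promoter and 8 sites outside promoters, of which those of INAVA and SDC1 lay 1.03 and 1.97 kb from a start. PLAU, which encodes urokinase, a protease of cell invasion, had a gained region at its promoter (chr10:73909034-73909583) at percentiles 54.7 and 47. That was the only promoter among the 10 gained regions of highest rank, and it held the AP-1 match printed above. The other 8 lay nearest to VWF (a clotting factor), RTN4 (a shaper of the endoplasmic reticulum), SLC9A4 (a sodium-proton exchanger), NEDD9 (an adhesion scaffold), INAVA, SH3PXD2A (a podosome scaffold), SDC1 (the proteoglycan syndecan-1) and POLR3E (an RNA polymerase III subunit). Their percentiles ran from 45.6 to 57.6, all 10 were gained at equal numbers too, and all 10 were open in the 4 ligand libraries at 1 h. None of the 10 was open in a 12 h vehicle library and only that of SH3PXD2A in a 24 h vehicle library, in 1 of 2.

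At equal numbers the regions of highest rank beside that of NR4A1 lay nearest to ADGRD1, MT2A, GIPC2, IGFL1, SLC44A3, KLF6 and TCF7L1. Those of ADGRD1 and KLF6 lay 158 and 200 kb from the start, too far to count in the gene lists below. The region near MT2A, a metallothionein that binds zinc and copper, spans chr16:56610105-56610762 and ranked at percentiles 65.5 and 65.2 with vehicle, at 13 in baseline replicate 1 and held no peak in baseline replicate 2. That of ADGRD1 ranked at 69.3 and 66 with vehicle and at 11.5 in baseline replicate 1. These regions were thus much higher in rank with vehicle but were listed in 1 baseline library.

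The strongest lost region covered the promoter of ALDH3B2, an aldehyde dehydrogenase gene. It ranked at percentiles 80.2 and 44.7 at baseline, had no peak in the 4 ligand libraries at 1 h and was open in both 24 h vehicle lists. DDIT4, the stress-induced inhibitor of mTORC1, had a lost region 2.99 kb from its start (chr10:72276909-72277716) at percentiles 25 and 24.6, open in none of the 4 ligand libraries at 1 h and in 8 of the 12 later ones. The other 8 of the first 10 lay nearest to RFPL4B, CEACAM3 (a granulocyte adhesion receptor), FBXL20 (an F-box protein), FSIP2, TOM1L1 (a trafficking adaptor), NMUR2 (a neuromedin U receptor), STX18 (a SNARE protein) and MIPOL1. Those of NMUR2, STX18, TOM1L1 and FSIP2 lay 116, 152, 227 and 557 kb from the start. All 10 were lost at equal numbers too. In the ligand libraries at 1 h, the region of TOM1L1 was open in all 4. Those of RFPL4B, FBXL20 and MIPOL1 were open in 2 of the 4, that of NMUR2 in 1, and those of CEACAM3, FSIP2 and STX18 in none.

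At equal numbers XBP1, the transcription factor of the unfolded protein response, led the lost regions (chr22:28794983-28796213). It ranked at percentiles 60 and 55.8 at baseline, at 1 in vehicle replicate 1 and had no peak in vehicle replicate 2. A second region, chr22:28811761-28812706, was lost as deposited, at percentiles 8.75 and 38.5. Neither had a peak in the 4 ligand libraries at 1 h, and the first was open in 9 of the 12 later libraries. TFF3, a secreted trefoil peptide of luminal cells, had a lost region at 69.8 and 38.7 against 19.4 and 5.81 with vehicle. The TFF3 region was open in both HRG libraries and neither EGF library at 1 h, and in all 12 later libraries. The lost regions ranked next after that of XBP1, nearest to BTN3A2 and NEUROD2, were open in all 4 ligand libraries at 1 h.

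The gained regions were richer in AP-1 and TEAD sequences than the lost regions. Consensus letters were searched on both strands of the 201-base window, for AP-1 (TGANTCA), TEAD, GATA, forkhead, AP-2, ETS, SP/KLF, the E-box, CRE, grainyhead-like factors, CTCF, the CArG box and the heat shock and steroid hormone response elements. AP-1 letters were found in 21.3% of gained (561), 6.13% of lost (10) and 13% of all merged regions. At equal numbers the shares were 21.2%, 10.3% and 12.7%, and in the members both ways 23.2% of gained and 6.67% of lost regions. Regions open in 1 of the 4 lists, with a median percentile of 5.68, held them at 13.5%. Outside promoters the shares were 21.5% of gained, 5.88% of lost and 15.9% of all regions.

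TEAD letters (ACATTCC) were found in 8.53% of gained, 1.23% of lost and 4.09% of all merged regions. At equal numbers those shares were 11.5%, 2.03% and 3.93%, and 14.0% of the 328 regions gained both ways held them. The order was reversed for CTCF, the insulator protein, with 1.37% of gained, 4.29% of lost and 2.91% of all regions, and 0.815%, 5.12% and 2.71% at equal numbers. GATA letters (AGATAA), bound by the luminal factor GATA3, were found in 10.3% of gained, 16.0% of lost and 7.92% of all regions, and at equal numbers in 10.6%, 11.9% and 7.71%. Forkhead letters (TGTTTAC), bound by FOXA1, were found in 9.86%, 12.9% and 8.57%, and at equal numbers in 7.54%, 11.1% and 8.36%, where the gained share lay below that of all regions. AP-2 letters were nearly missing from the lost regions, at 1.23% against 14.4% of gained and 18.0% of all, but at equal numbers the lost share was 10.4%. SP/KLF and ETS letters, typical of promoters, were in 0.683% and 1.4% of gained regions, 0.613% and 1.23% of lost regions and 5.61% and 4.4% of all. A match is not a bound site, and these shares were described without a test.

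**Figure D4:**
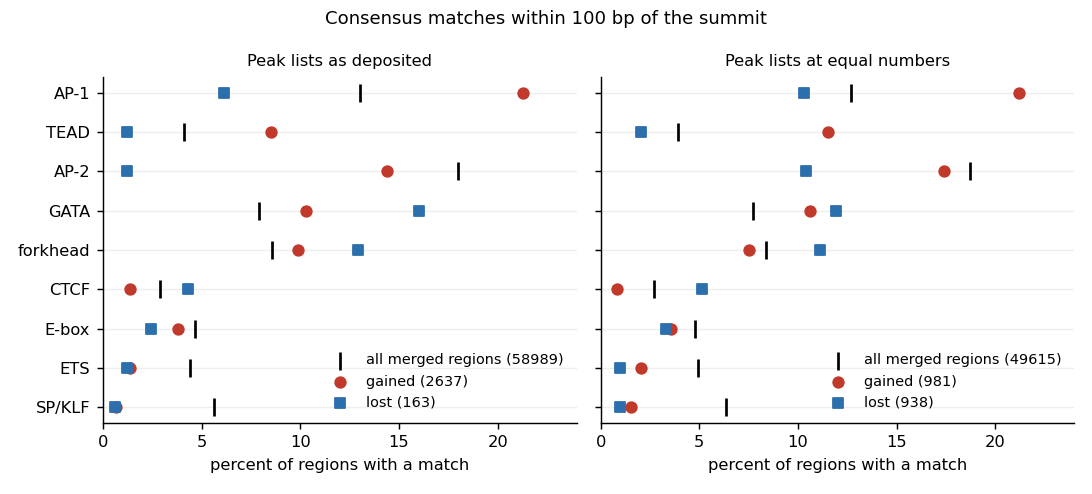
Percent of regions whose window within 100 bp of the summit matches each consensus (x axis), for gained (red circles), lost (blue squares) and all merged regions (black ticks), as deposited (left) and at equal numbers (right). AP-1 and TEAD lie to the right of the black tick for gained and to the left of it for lost regions in both panels, and CTCF lies the other way round.

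The score of the 41458 regions open in all 4 lists gave a measure that the presence rule as deposited had not used, from the same 4 libraries. The summed score was put on a log2 scale, quantile normalized and tested with limma. With a Benjamini-Hochberg adjusted p below 0.05, 7 regions were higher with vehicle and 7 lower, 0.0169% of the regions each way. At an unadjusted p below 0.05, 1945 were higher and 1667 lower. The calls rested on the libraries and the score used: with the highest score of a region in place of the sum, limma passed 0 in either direction (unadjusted 1659 higher and 1516 lower). Without baseline replicate 1 limma passed 4332 higher and 3049 lower, without baseline replicate 2 it passed 1009 and 676, and without a vehicle replicate 20 or 21 higher and 10 or 13 lower.

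Among the regions that passed with a higher score was an intron of ATF3, a stress-induced partner of AP-1 (chr1:212595937-212596679). Its log2 scores were 9.5 and 9.62 with vehicle and 7.88 and 7.83 at baseline, a difference of 1.71 ± 0.18 (SE, limma adjusted p = 0.0176), and it held an AP-1 match. The region 15.9 kb from the start of LASP1, an actin-binding adaptor, scored 12.03 and 11.97 with vehicle against 10.59 and 10.58, a difference of 1.41 ± 0.08 (SE, limma adjusted p = 0.000505). Regions near LAPTM4A and ZNF217 passed at 1.3 and 0.93 on the log2 scale. GRB7 and KRT86 passed with small differences of 0.16 and 0.46, but both rest on equal normalized values in 1 or both groups, which quantile normalization gives at extreme ranks. In each of these 6 regions both vehicle values lay above both baseline values, and the 7th was on chromosome 8.

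The regions that passed with a lower score included 2 neighbouring regions 49.3 and 50.9 kb from TMEM63B, an osmosensitive ion channel. The first scored 9.06 and 9.01 with vehicle and 11 and 10.93 at baseline and fell by 1.93 ± 0.14 on the log2 scale (SE, limma adjusted p = 0.00101), and the second passed at -1.33. The region 5.42 kb from ZFP36L1, an RNA-binding protein that speeds the decay of early response mRNAs, fell by 0.74 (limma adjusted p = 0.0221). Promoter regions of CCDC183 and GPC1 and an intron of CEACAM6 passed at -1.76, -0.90 and -1.54, and PPP1R1B, beside ERBB2, at -0.14 with equal normalized values. In each of these 7 regions both vehicle values lay below both baseline values.

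The AP-1 contrast was also seen in shared regions, which the presence rule as deposited had not selected. The rule at equal numbers ranks peaks by the same score. Of its 938 lost regions, 678 held a peak in both full vehicle lists, so the lower side here is not separate from that rule. Of the regions with a higher score at an unadjusted p below 0.05, 22.6% held the AP-1 letters, against 6.84% of those with a lower score and 12.8% of all shared regions. CTCF letters were in 0.411%, 3.36% and 2.58%. Promoters were 17.1% of the higher, 10.9% of the lower and 29.4% of all shared regions.

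Gene lists were read by the nearest annotated start within 100 kb of each region. Of 19962 protein-coding genes, 9.12% had a gained and 0.611% a lost region, and at equal numbers 3.74% and 3.44%. A gained region overlapped the promoter of 0.952% of the genes, and a lost region that of 0.0551%. Immediate early factors had gained regions at 6 of 23 genes (26.1%), 12 regions in all. As deposited, NR4A1 and KLF6 had 3 each and FOSL2, an AP-1 subunit, and IER5 had 2 each. At equal numbers it was again 6 of 23, but not the same genes, since ATF3 was among them only there. The equal-number regions of FOSL2, IER3 and ATF3 each held a peak in the full list of baseline replicate 1. The region of IER5, chr1:181120641-181121262, ranked at percentiles 39.4 and 32.7 and was gained both ways, as was that of KLF6 at chr10:3806595-3806909, at 31.7 and 20.2 with an AP-1 match.

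Immediate early promoters held a region open in all 4 lists at 23 of 23 genes, and NR4A1 held the 2 gained promoter regions as well. The scores of the shared promoter regions had a median log2 difference of 0.17, with 20 values above and 3 below 0, and none passed limma. Over all shared regions, promoters or not, the median was -0.01. ERBB receptors and ligands had nearly the same median, 0.16 (5 above and 3 below 0). The other lists ran from -0.14 to 0.1, so a shift of this size was not particular to immediate early genes. FOS was at 0.50 ± 0.20 (SE, limma adjusted p = 0.528), IER5 at 0.51 ± 0.16 (adjusted p = 0.395) and EGR1 at -0.19 ± 0.09 (adjusted p = 0.6).

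Peak coverage along gene bodies separated some of these genes. In the lists as deposited, both vehicle libraries covered more of the gene than both baseline libraries at 12.6% of all genes and less at 2.57%, and at equal numbers at 9.59% and 4.66%. Among the 23 immediate early genes the counts were 6 more and 1 less, both ways. Besides NR4A1, the 6 include ATF3 (3480 and 3520 bp with vehicle, 3177 and 2273 bp at baseline), FOSL2 (1906 and 2032 bp, 1587 and 747 bp), IER5 (1620 and 1777 bp, 1573 and 674 bp) and NR4A3 (457 and 458 bp, 434 and 241 bp). With 32479 top peaks per list the groups overlapped at FOSL2 (748 and 1421 bp, 759 and 747 bp) but not at ATF3 (3480 and 3181 bp, 2137 and 1567 bp).

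EGR1, a zinc finger factor of the same class, was the 1 gene that went the other way, and it is named here after its values were seen. Of its 3825 bp, peaks covered 1367 and 2075 bp with vehicle and 3127 and 2550 bp at baseline. At equal numbers the coverage was 871 and 917 bp against the same baseline values, so the groups stood farther apart. With 32479 top peaks per list the ligand libraries at 1 h covered 871 to 1865 bp, those with vehicle at 12 and 24 h 2270 to 2603 bp, and those with EGF at 12 h 129 and 271 bp. In BT474 the baseline libraries covered 3630 and 3523 bp and the 1 h vehicle libraries 3064 and 3209 bp as deposited.

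Targets of actin signalling through serum response factor had gained regions at 7 of 12 genes (58.3%), MYH9, VCL, FHL2, TPM1, TAGLN, CCN2 and AMOTL2, but at 2 of 12 at equal numbers, MYH9 and FHL2. The promoter region of MYH9, the heavy chain of non-muscle myosin (chr22:36370933-36371484), ranked at percentiles 30.4 and 38.4, and an intronic region of FHL2, a LIM protein, at 35.2 and 29, and both were gained both ways. The regions nearest to CCN2 and AMOTL2, genes that YAP and TEAD are known to switch on, lay 56.0 and 58.3 kb from the start. They ranked low, at 1.5 and 8.5 and at 7.12 and 3.26, and whether they act on these genes was not tested. In 7 of the 9 gained regions of the list the lower percentile was 14 or less, and peaks of that rank are the ones that equal numbers remove.

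Luminal lineage genes had gained regions at 5 of 17 genes, heat shock and stress genes at 4 of 19, sterol and lipid genes at 3 of 12, ERBB receptors and ligands at 3 of 15, and glucose and hypoxia, circadian and NF-kappaB targets at 2 each of 15, 13 and 12. MAP kinase feedback and G1 to S genes had 1 each of 17 and 11, and interferon response genes had 0 of 12. At equal numbers, where 3.74% of all genes had a gained region, the counts were 3 luminal, 2 MAP kinase feedback, 1 each of the heat shock, glucose and hypoxia, circadian, NF-kappaB, G1 to S and interferon lists, and 0 of the sterol and ERBB lists. Gained promoter regions of these lists were at ERBB4, the HRG receptor (percentiles 6.07 and 14), EPGN, an EGFR ligand (6.33 and 9.2), FASN, the fatty acid synthase (34.4 and 11.5), TRIB3, HSPH1 and the shared promoter of HSPD1 and HSPE1. None of them was gained at equal numbers. At equal numbers glucose and hypoxia genes had lost regions at 4 of 15, among them TXNIP, an inhibitor of glucose uptake (percentiles 45.1 and 18.9 at baseline, 12.3 and 3.88 with vehicle), SLC2A1, HK2 and ADM. Lost regions were also found at 3 of 17 MAP kinase feedback, 2 of 13 circadian, 2 of 17 luminal, 2 of 23 immediate early, 1 of 12 NF-kappaB and 1 of 19 heat shock genes, against 3.44% of all genes, and at 0 of the other lists. Interferon, MAP kinase feedback and G1 to S genes lay at 0%, 5.88% and 9.09%, at or below the 9.12% of all genes as deposited, and the other lists at 13.3% to 58.3%. How many regions lie near each gene was not taken into account in these counts.

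BMP7, a bone morphogenetic protein, had the most gained regions of any gene, 5 of the 28 merged regions nearest to it, and 1 lost region. CMIP, KCTD1, PLEKHA7 (a junction protein) and SYNE1 (a nuclear envelope protein) had 4 each, and the pioneer factor GATA6 had 3 of 12. At equal numbers BMP7 had 2, and CMIP and PLEKHA7 1 each.

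The gained regions were followed into the other BT474R libraries, which the rule did not use. As deposited, the ligand libraries at 1 h held peaks at 63.1% and 81.0% of them with HRG and at 61.4% and 45.3% with EGF. The vehicle libraries held 0.417% and 2.46% at 12 h and 3.98% and 12.1% at 24 h, and the ligand libraries of those times 11.9% to 49.5%. Each ligand library at 1 h but EGF replicate 2 thus lay above every later library. The means were 62.7 ± 14.6% (SD, n = 4) at 1 h and 26.5 ± 14.6% (SD, n = 8) later, a difference of 36.2 percentage points with a two-sided exact permutation p of 0.00444 within ligand, the smallest that its arrangements can give. The lists of these libraries differed in length, so the share was taken again at equal numbers.

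With 32479 top peaks in every list of the line, 703 regions were gained and 682 lost. The ligand libraries at 1 h held 74.3% to 78.5% of these gained regions and the later ligand libraries 38.0% to 47.8%, with no overlap. The means were 76.3 ± 2.23% (SD, n = 4) and 44.1 ± 2.98% (SD, n = 8), a difference of 32.3 points (exact permutation p = 0.00444). The vehicle libraries held 17.2% and 26.2% at 12 h and 21.2% and 29.6% at 24 h, below every ligand library. All merged regions were open at 80.6% to 86.2% in these libraries, a much narrower range than that of the gained regions.

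The lost regions showed the converse at equal numbers. The ligand libraries at 1 h held 17.9 ± 0.722% of them (SD, n = 4) and the later ligand libraries 44 ± 5.52% (SD, n = 8), a difference of -26.1 points (exact permutation p = 0.00444). The vehicle libraries held 53.4% and 51.8% at 12 h and 57.9% and 58.8% at 24 h. As deposited, the 163 lost regions gave 18.1 ± 12.8% and 23.1 ± 18.5% (SD, n = 4 and 8), a difference of -4.98 points that did not pass (exact permutation p = 0.627). The lost regions thus separated the times only once the lists had equal lengths.

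**Figure D5:**
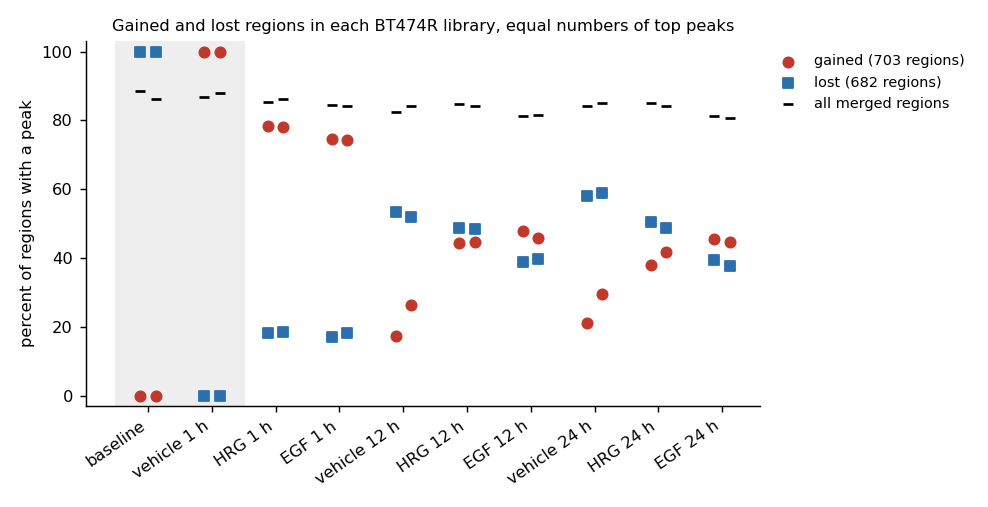
Percent of the 703 gained regions (red circles), the 682 lost regions (blue squares) and all merged regions (black dashes) that hold a peak in each BT474R library, with 32479 top peaks per list. The shaded baseline and 1 h vehicle libraries define the members, and the ligand libraries at 1 h lie at 74.3% to 78.5% of gained and 16.9% to 18.5% of lost regions.

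The 12 h and 24 h vehicle libraries were compared with the same 2 baseline libraries, so the 3 comparisons share their controls. As deposited, 12 h of vehicle gave 19 gained and 5236 lost regions and 24 h gave 147 and 2574, with a mean difference in peaks from baseline of -12372 and -4960. At equal numbers the counts were 391 and 836 at 12 h and 760 and 1276 at 24 h, against 981 and 938 at 1 h. The 3 equal numbers differ, since each follows its shortest list.

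BT474 was given the same vehicle and has its own baseline libraries. There the contrast gave 714 gained and 635 lost regions as deposited and 685 and 691 at equal numbers. Of the 2637 regions gained in BT474R, 43 (1.63%) were gained in BT474 and 17 (0.645%) lost, against 0.661% and 0.649% of all merged regions. Of the 163 lost regions, 0 were gained in BT474 and 3 (1.84%) lost, and at equal numbers 2 and 18 (1.92%) of 938. Of the gained regions, 1458 (55.3%) had no peak in any of the 4 BT474 lists, against 23.4% of all merged regions and 61.7% of those open in 1 of the 4 BT474R lists. The difference in peak number between vehicle and baseline was 6598 in BT474R and 100 in BT474, and a two-sided exact permutation test of the difference between the lines gave p = 0.278.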

How the data were processed

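Reads had been trimmed (Trim Galore 0.6.6), aligned to GRCh38 (BBMap) and sorted (samtools) by the authors, who ran the peak caller Genrich on every library by itself without mitochondrial reads and blacklisted regions, with options not given in the sources used here. For each peak the authors deposited a score, the area under its significance curve, and a −log10 p and −log10 q. The lowest score in all lists was 200. A score grows with sequencing depth, which the lists do not give. The authors' own test of read counts could not be run on peak lists.

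All peaks lay within the chromosomes of the hg38 reference, annotated with GENCODE release 44. Regions were merged, called and matched to sequence in Python 3.11.15 (pandas 2.3.3, scipy 1.17.1). Shared regions were tested with limma 3.58.1 (R 4.3.3) on the log2 of the summed score, quantile normalized. Libraries were compared by two-sided exact permutation tests. Scripts were tested on simulated data. Alternatives were equal numbers of top peaks, a score of at least 400, peaks trimmed to 400 bp or covering 50% of a region, other scores and normalizations, a replicate block and leaving out each library.

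Named regions were the first 10 per direction and way of counting by the lower rank percentile, or by limma p, and list genes with a region nearest or in the promoter. Regions on chromosome 8 were counted but not named. Members and lists were chosen with earlier results of these data known, and gene-body coverage was added after the data were seen. Sequences come from hg38. Some regions that met the naming rule are not reported here.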

Additional observations from a re-analysis of the deposited data

How the results depend on the processing

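The count of gained regions, 2637 as deposited, was 981 at equal numbers and 1714 with a score of at least 400, and leaving out 1 library gave 2935 to 9197. Lost regions, 163 as deposited, were 938, 70 with that score and 278 with peaks trimmed to 400 bp, and 263 to 1978 without 1 library. The gained share of members, 94.2%, was 51.1% at equal numbers and 59.7% to 97.2% without 1 library, the lowest without baseline replicate 2. Taking equal numbers drops the weakest peaks of the longer lists, which moves both counts. Leaving out 1 library loosens the rule, which by itself raises both counts, and what else set them was not tested. The difference in promoter share of peaks, -1.54 percentage points, reversed to 0.266 at equal numbers (exact permutation p = 1), and the cause was not tested. Shared regions with a higher and a lower score, 7 each by limma, were 0 and 0 with the highest score (unadjusted p below 0.05 at 1659 and 1516), 159 and 83 with −log10 p in place of the score, 2 and 3 with a score of at least 400, and 20 to 4332 and 10 to 3049 without 1 library, where the lone library of a group was assumed to vary like the other group. The cause was not tested. Replicate numbers only name the samples: with the replicate block, limma called 213 higher and 121 lower, and the peak number and promoter share kept differences of 6598 and -1.54 with p = 0.5, the smallest exact permutation p the block allows. The replicate deviations of the 2 groups correlated at -0.271 over shared regions, and with the pairing crossed, chosen after seeing the data, limma called 662 higher and 370 lower. The 1 h minus later share of gained regions in ligand libraries was 46.9 points against 12 h and 25.5 against 24 h alone, each at p = 0.0556, the smallest that 36 arrangements give in an exact permutation test. For lost regions it was -26.1 at equal numbers (p = 0.00444, exact permutation test) and reversed to 8.74 against 12 h alone (p = 0.167, exact permutation test). Leaving out 1 library gave a difference in peak number of 2368 to 10829 and in promoter share of -2.23 to -0.846 points, the smallest of each without baseline replicate 2, with the direction kept. Depth limits what was listed: a region without a peak is one below the score of 200, not one shown to be closed.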
